A study of Arabidopsis thaliana with 8 samples.

Results

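The transcriptome of bri1-116 seedlings grown in the dark was compared with that of dark-grown wild-type Col-0 seedlings. All single-locus genes with an FPKM (the fragments mapped to a gene, scaled for its transcript length and for the size of the library) of at least 10 in either library and above 0 in both were ranked by the ratio of bri1-116 to Col-0. This gave 12290 genes out of 26795 single-locus entries and 26987 entries in all. bri1-116 is a null allele of BRI1, the plasma membrane receptor kinase for brassinosteroids (BRs), in the Col-0 ecotype. Both groups were whole seedlings, taken 5 days after sowing in the dark on sucrose-containing plates with the ethanol (EtOH) mock and no dexamethasone. The series has 8 libraries, 1 for each condition, so none of the values has a replicate and no test between genotypes could be made. The genotype fields of the 2 dark libraries contradict their titles: the library titled bri1-116 carries the field wildtype, and the library titled Col-0 carries the field bri1-116. Titles were followed here, and all directions would turn if the fields were right. Besides the 2 dark libraries, a dark library of DAYi seedlings with EtOH (an inducible RNAi line against DAY, not induced, age-matched) was used as another control, and the 9-day-old light-grown bri1-116 and Col-0 libraries are given where they touch a result.

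BRs bind BRI1 at the cell surface, and the signal inactivates the kinase BIN2, so that the transcription factors BZR1 and BES1 act in the nucleus. In a dark-grown seedling this pathway sustains etiolated growth: a long hypocotyl, a closed hook and plastids that are not yet green. Mutants without BR signaling are short and open their cotyledons in the dark. BZR1 acts with PIF factors, which bind G-boxes and related E-boxes, and BZR1 itself binds the BR response element.

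In dark-grown bri1-116, most ranked SAUR and fasciclin-like genes and a part of the other genes of cell elongation, the cell wall, the cuticle and the endodermis were above 2-fold lower than in Col-0, whereas most ranked genes of photosynthesis, chlorophyll synthesis and the plastid ribosome, and a part of those of the cytosolic ribosome, were above 2-fold higher. Of the 12290 ranked genes, 1175 (9.56%) were above 2-fold higher in bri1-116 and 791 (6.44%) were above 2-fold lower, with a median log2 ratio of -0.05. Among the genes of largest change the lower side led: 184 genes were above 4-fold lower against 134 above 4-fold higher, and 50 were above 10-fold lower against 13 higher. Genes just inside and outside the 2-fold limit were alike, such as AKRP (59.6 FPKM in bri1-116 and 29.8 FPKM in Col-0) and AT1G26470 (40.1 FPKM in bri1-116 and 20.1 FPKM in Col-0). By the same rule, the uninduced DAYi library against the library titled Col-0 gave 42 genes higher (0.357%) and 28 lower (0.238%) of 11762, whereas the library titled bri1-116 against that DAYi library gave 1094 higher (8.8%) and 1077 lower (8.67%) of 12425. The library titled Col-0 thus lay near the other dark library without the mutation and the library titled bri1-116 did not, which goes with the titles and not with the genotype fields, although these tables were normalized separately.

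**Figure D1:**
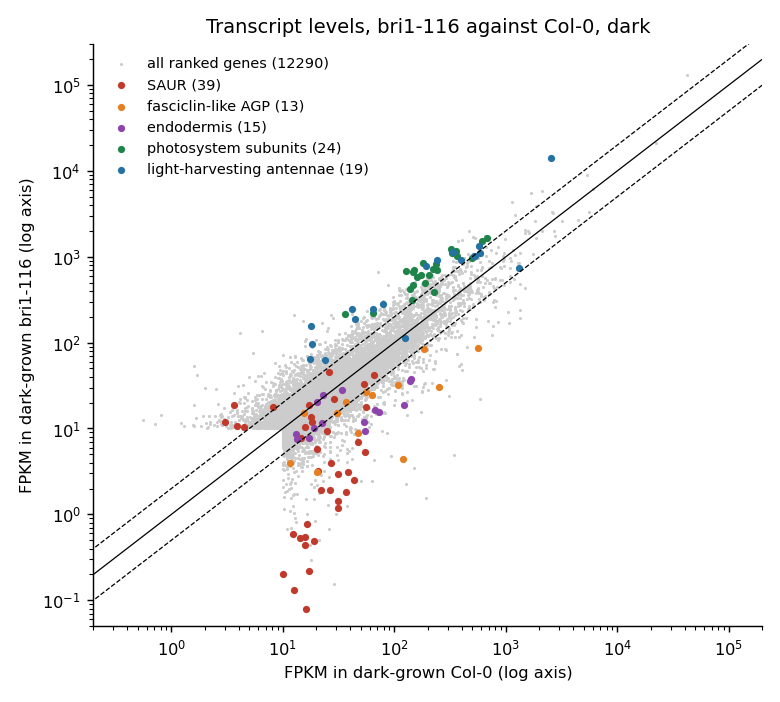
FPKM of 12290 ranked genes in dark-grown bri1-116 (vertical, log axis) against dark-grown Col-0 (horizontal, log axis), 1 library each, with 5 gene lists in color; the solid line is equality and the dashed lines are 2-fold. SAUR, fasciclin-like and endodermis genes reach far below the lower dashed line, and most photosystem and antenna genes lie above the upper one.

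The labels were checked against known genes first. PORA, the protochlorophyllide oxidoreductase of dark-grown seedlings, was at 1586 FPKM in dark bri1-116 and 402 FPKM in dark Col-0, and near 0 in the light libraries (1.12 FPKM in bri1-116 and 1.96 FPKM in Col-0). BRI1 (AT4G39400, chromosome 4, 18324661 to 18328826, TAIR10) was at 42.5 FPKM in bri1-116, 70.6 FPKM in Col-0 and 68.0 FPKM in DAYi with EtOH. The allele carries a stop codon and no deletion of the gene, so this level is no check of the genotype. DAY (AT3G51140), the chaperone-like protein that the study is about, was at 32.8 FPKM in bri1-116 and 13.8 FPKM in Col-0. The label whole seedling was checked by markers: root genes of the Casparian strip, xylem genes and shoot epidermis wax genes were present in both libraries. Of the root hair list 2 of 24 genes reached 10 FPKM, CSLD3 in both libraries and RHS13 in bri1-116 only (10.8 FPKM, against 1.29 FPKM in Col-0). The root hair markers differed between the libraries, with a median log2 ratio (FPKM + 1) of 1.02 over 14 members of at least 1 FPKM. Of the stomatal lineage list 6 of 19 genes reached 10 FPKM in 1 library or both. In whole seedlings, fewer cells of a type and less RNA per cell cannot be told apart.

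A single entry, AT2G01021 (annotated as hypothetical), took 13.48% of summed FPKM in bri1-116 and 5.23% in Col-0, against 15.83% in DAYi with EtOH. Scaling each library up for the share of summed FPKM that this entry took raises every log2 ratio by 0.13. The calls then become 1556 higher and 597 lower, so that 72.3% of the calls are higher instead of 59.8%. This treats a share of summed FPKM as a share of fragments. Library sums, 963100 FPKM in bri1-116 and 803228 FPKM in Col-0, were not set equal, and the shift rests on that choice. From low FPKM values of intronless genes, 1 FPKM on 1 kb stood for about 91.6 fragments in bri1-116 and 51.8 in Col-0, so that the Col-0 library is the shallower of the pair. The interval given for SAUR25 rests on this estimate and covers counting error only.

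Promoter windows were searched for 3 kinds of motif that BZR1 or PIF factors are known to bind. Of the windows from 250 bases before to 50 bases after the RefSeq gene start, CACATG on either strand (CATGTG is its other strand) was in 12.7% of all 12244 ranked genes with a window. The share was 21.5% of genes above 2-fold lower, 34.3% of those above 4-fold lower and 56.4% of the 39 ranked SAUR genes, against 11.1% of genes above 2-fold higher. CACGTG, the G-box, was in 9.1% of all windows, 7.3% of the genes above 2-fold lower and 9.9% of those above 2-fold higher. Among lists with higher genes its share varied: 11 of 24 photosystem genes (45.8%), 4 of 19 antenna genes (21.1%) and 9 of 203 cytosolic ribosomal genes (4.4%). The BR response element, CGTGTG or CGTGCG on either strand, was in 8.5% of all windows, 9.0% of genes above 2-fold lower and 8.4% of genes above 2-fold higher, so these shares lay close together. A match describes letters in a window and is not a bound site. Overlaps between the motifs were not removed.

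The sequences are the 250 bases before the RefSeq gene start (TAIR10.1, whose nuclear chromosomes are those of TAIR10), 5′ to 3′ on the gene's strand, with matches to these motifs in capitals. IAA19 (chr3:5263751-5264000, plus strand) is shown because it alone of the 7 holds a match to each of the 3 motifs, and because it was among the lowest genes. SAUR25 (chr4:8000373-8000622, minus strand), SAUR15 (chr4:18125807-18126056, plus strand) and AT1G29490 (chr1:10319482-10319731, plus strand) are the 3 lowest SAUR genes with CACATG in this stretch.
IAA19: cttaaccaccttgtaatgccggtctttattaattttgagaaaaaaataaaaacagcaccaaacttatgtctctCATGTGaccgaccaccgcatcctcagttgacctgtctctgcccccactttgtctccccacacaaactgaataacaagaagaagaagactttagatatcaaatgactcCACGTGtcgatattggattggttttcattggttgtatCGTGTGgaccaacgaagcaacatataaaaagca
SAUR25: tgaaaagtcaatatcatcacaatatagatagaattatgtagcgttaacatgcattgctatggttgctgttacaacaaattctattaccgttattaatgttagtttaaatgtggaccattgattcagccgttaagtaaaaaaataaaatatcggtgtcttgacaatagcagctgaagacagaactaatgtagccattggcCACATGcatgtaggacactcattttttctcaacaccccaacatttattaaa
SAUR15: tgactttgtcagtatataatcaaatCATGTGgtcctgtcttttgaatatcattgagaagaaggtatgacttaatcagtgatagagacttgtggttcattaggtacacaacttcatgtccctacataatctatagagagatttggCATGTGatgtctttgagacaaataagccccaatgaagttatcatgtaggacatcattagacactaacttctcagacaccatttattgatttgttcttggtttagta
AT1G29490: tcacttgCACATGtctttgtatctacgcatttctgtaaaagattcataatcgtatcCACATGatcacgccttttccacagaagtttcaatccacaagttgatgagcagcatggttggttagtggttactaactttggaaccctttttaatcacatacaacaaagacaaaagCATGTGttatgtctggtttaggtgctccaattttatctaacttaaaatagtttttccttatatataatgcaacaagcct

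PSAH2 (chr1:19454548-19454797, plus strand), PSBTN (chr3:7377227-7377476, minus strand) and PSBQA (chr4:11334102-11334351, plus strand) are the 3 photosystem genes of highest ratio with a G-box in the same stretch. Their capitals are CACGTG, apart from 1 CATGTG in PSBTN.
PSAH2: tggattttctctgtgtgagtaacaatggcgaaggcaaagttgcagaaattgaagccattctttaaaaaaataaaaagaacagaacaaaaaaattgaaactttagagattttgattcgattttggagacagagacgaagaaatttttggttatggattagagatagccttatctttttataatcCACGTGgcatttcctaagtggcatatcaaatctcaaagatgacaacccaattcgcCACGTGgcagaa
PSBTN: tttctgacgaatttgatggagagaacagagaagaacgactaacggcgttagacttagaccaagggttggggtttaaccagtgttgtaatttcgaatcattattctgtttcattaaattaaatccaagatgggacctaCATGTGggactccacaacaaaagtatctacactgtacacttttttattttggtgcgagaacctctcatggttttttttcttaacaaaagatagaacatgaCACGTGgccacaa
PSBQA: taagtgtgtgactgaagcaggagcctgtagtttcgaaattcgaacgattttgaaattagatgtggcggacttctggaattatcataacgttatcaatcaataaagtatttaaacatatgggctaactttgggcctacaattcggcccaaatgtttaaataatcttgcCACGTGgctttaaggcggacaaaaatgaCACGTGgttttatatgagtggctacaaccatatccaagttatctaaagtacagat

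The SAUR family, named for small RNAs that auxin raises quickly, drives the elongation of cells, and its members held 10 of the 25 genes of lowest ratio. Of 80 genes on the SAUR list, 39 reached 10 FPKM, of which 25 were above 2-fold lower in bri1-116 and 5 were above 2-fold higher. Matched by the symbol SAUR21, the list also holds the ARM repeat gene AT5G01830, which did not reach 10 FPKM. The lowest ratio of all ranked genes belonged to SAUR25 (AT4G13790), at 0.08 FPKM in bri1-116, 16.2 FPKM in Col-0 and 36.1 FPKM in DAYi with EtOH. This is a ratio of 0.00495 (95% interval of counting error 0.00173 to 0.0103, from about 6 and 718 fragments). SAUR15 was at 0.13 FPKM in bri1-116 and 12.5 FPKM in Col-0, and SAUR10 at 0.222 FPKM in bri1-116 and 17.3 FPKM in Col-0. These genes were nearly silent in the mutant and moderately expressed in both controls.

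Of the 25 lower SAUR genes, 18 lay in 4 tandem groups and 7 elsewhere (SAUR1, SAUR9, SAUR10, SAUR25, SAUR30, SAUR50 and SAUR57). In the group on chromosome 1, AT1G29430 to AT1G29510, 7 SAUR genes were at 0.203 to 3.98 FPKM in bri1-116 and 10 to 27.2 FPKM in Col-0, but their neighbour SAUR61 ran the other way, at 17.9 FPKM in bri1-116 and 8.21 FPKM in Col-0. On chromosome 3, SAUR26 to SAUR29 were at 0.443 to 2.51 FPKM in bri1-116 and 8.55 to 43.8 FPKM in Col-0. SAUR19 to SAUR24 on chromosome 5 were at 1.18 to 5.39 FPKM in bri1-116 and 31.1 to 54.3 FPKM in Col-0. Genes with other annotations inside these groups did not share the difference: AT1G29470, between SAUR65 and AT1G29490, was at 59.2 FPKM in bri1-116 and 81.5 FPKM in Col-0, and AT5G18040 was at 11.5 FPKM in bri1-116 and 6.31 FPKM in Col-0. Tandem SAUR copies are near-identical in places, so the split of reads among them is uncertain. The remaining higher members were SAUR46 (18.8 FPKM in bri1-116 and 3.61 FPKM in Col-0), SAUR31, SAUR37 and SAUR44, with ratios from 2.34 to 5.22. Among the 22 SAUR genes with CACATG in the window, 17 were above 2-fold lower and 1 was higher, with a median ratio of 0.0531. Of the 17 without it, 8 were lower and 4 higher, with a median ratio of 0.623. Neighbouring copies share promoter sequence, so these genes are not independent.

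**Figure D2:**
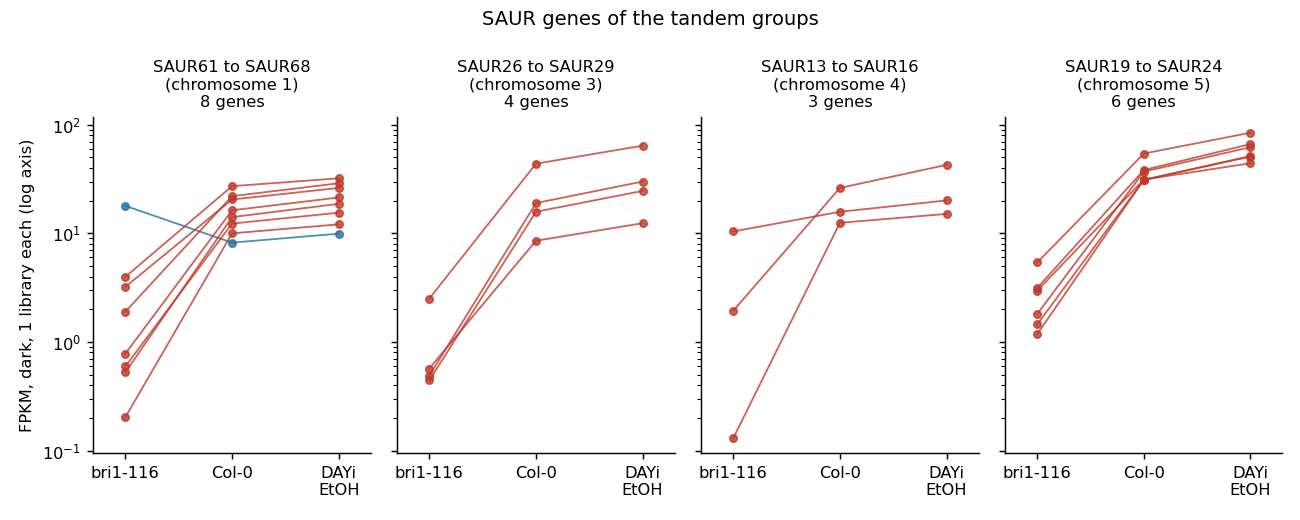
FPKM (log axis) of 21 SAUR genes of 4 tandem groups in dark-grown bri1-116, Col-0 and DAYi with EtOH, 1 library each; a line joins the values of 1 gene, red where bri1-116 is below Col-0 and blue where it is above. All genes but SAUR61 are lower in bri1-116, and the controls lie near each other.

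The Aux/IAA repressors, which auxin induces and then destroys to release its own response, were divided. Of 18 ranked members 5 were above 2-fold lower and none was higher. IAA19 was at 2.27 FPKM in bri1-116 and 128 FPKM in Col-0, and IAA6 was listed at 0 in bri1-116 against 19.9 FPKM in Col-0 and 21.7 FPKM in DAYi with EtOH. AXR3 (30.2 FPKM in bri1-116, 182 FPKM in Col-0) and SHY2 (18.9 FPKM in bri1-116, 98.7 FPKM in Col-0) followed, whereas IAA16 (264 FPKM in bri1-116, 310 FPKM in Col-0) and IAA2 (213 FPKM in bri1-116, 286 FPKM in Col-0) lay within 2-fold. The ARF list holds the auxin response factors themselves and, matched by the symbol ARF3, also an ADP-ribosylation factor (AT2G24765). None of its 12 ranked genes and none of 6 GH3 genes, most of which conjugate auxin to amino acids, passed 2-fold. Of 18 genes of auxin synthesis and transport only PILS5 (49.5 FPKM in bri1-116, 228 FPKM in Col-0) and the transporter ABCB4 (29.8 FPKM in bri1-116, 88.9 FPKM in Col-0) did, both lower. WAG2, a kinase that acts on auxin efflux carriers, was at 0.84 FPKM in bri1-116 and 19.6 FPKM in Col-0.

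The small bHLH proteins of elongation did not move as a family. PRE1 was at 0.502 FPKM in bri1-116 and 21.2 FPKM in Col-0, and KDR, of the same family, at 13.8 FPKM in bri1-116 and 61.1 FPKM in Col-0. BS1, also of this family, was higher, at 18.0 FPKM in bri1-116 and 4.77 FPKM in Col-0. IBH1, which blocks HBI1, was at 25.1 FPKM in bri1-116 and 87 FPKM in Col-0, while HBI1 itself was at 64.7 FPKM in bri1-116 and 36.6 FPKM in Col-0, and BEE1, BEE2 and BEE3 were within 2-fold. Together 4 of 17 ranked members were lower and 1 was higher.

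Of 11 ranked genes of BR and sterol synthesis 1 was above 2-fold higher, 1 was lower and 9 were within 2-fold. The lower one was the sterol desaturase gene CYP710A1, at 23.1 FPKM in bri1-116 and 71.1 FPKM in Col-0. BR6OX2, the last enzyme of BR synthesis, was at 129 FPKM in bri1-116, 42.2 FPKM in Col-0 and 44.1 FPKM in DAYi with EtOH, and DWF4, the rate-limiting step, at 56.2 FPKM in bri1-116 and 33.0 FPKM in Col-0, within 2-fold. The 3 enzymes with above 2-fold lower values of the 4 ranked ones that inactivate BRs were BAS1 (3.92 FPKM in bri1-116, 10 FPKM in Col-0), CYP72C1 (12.5 FPKM in bri1-116, 33.1 FPKM in Col-0) and BAT1 (AT4G31910; 22.1 FPKM in bri1-116, 45.5 FPKM in Col-0). This count is 2 without AT2G01021 or with the median ratio set to 1, and 4 against DAYi with EtOH. Of 21 ranked genes of the receptor and signaling chain 1 passed 2-fold, the kinase BSK5 (14.0 FPKM in bri1-116, 31.5 FPKM in Col-0), whereas BIN2 (165 FPKM in bri1-116, 193 FPKM in Col-0), BES1 (94.5 FPKM in bri1-116, 99.5 FPKM in Col-0) and BZR1 (20.3 FPKM in bri1-116, 30.3 FPKM in Col-0) did not. The sterol desaturase gene CYP710A2, which acts in a side branch of sterol synthesis, was among the lowest genes, at 0.681 FPKM in bri1-116 and 25.8 FPKM in Col-0.

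Cell wall families were lower in part of their members. EXPA8, an expansin that loosens walls, was at 2.43 FPKM in bri1-116, 63.1 FPKM in Col-0 and 91.9 FPKM in DAYi with EtOH, but 5 of 18 ranked expansins in all were above 2-fold lower and EXPA6 and EXPA9 were near 1. Of 18 ranked XTH genes, which cut and rejoin xyloglucan, 7 were lower and XTH32 was higher. XTH4 (121 FPKM in bri1-116, 753 FPKM in Col-0), XTH17 (30.5 FPKM in bri1-116, 246 FPKM in Col-0) and XTH19 (14.3 FPKM in bri1-116, 131 FPKM in Col-0) led, while XTH15, the most abundant member, was at 1883 FPKM in bri1-116 and 1487 FPKM in Col-0. Of 6 ranked proline-rich and extensin genes 2 were lower and 1, EXT4, was higher (306 FPKM in bri1-116, 99.5 FPKM in Col-0). PRP2, a proline-rich wall protein, was at 4.93 FPKM in bri1-116 and 341 FPKM in Col-0, and ATPMEPCRD, a pectin methylesterase, at 23.7 FPKM in bri1-116 and 307 FPKM in Col-0. Of 19 ranked genes of the pectin methylesterase list, which also holds inhibitors of these enzymes, 6 were lower and 3 were higher. The higher ones were AT1G62770 and AT5G62340, both annotated with an inhibitor domain, and the probable pectinesterase AT5G19730. AT1G62770 was at 161 FPKM in bri1-116 and 64.8 FPKM in Col-0. Among the lower ones, AT4G25260 is annotated with an inhibitor domain as well. Pectate lyases were lower in 5 of 10 ranked members and higher in none.

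Fasciclin-like arabinogalactan proteins, cell surface proteins linked to wall growth, were lower in most members: 11 of 13 ranked members were above 2-fold lower and none was higher, with a list median of -1.22 (log2 of FPKM + 1; -0.03 over all 19061 genes of at least 1 FPKM). FLA9 was at 85.5 FPKM in bri1-116 and 566 FPKM in Col-0, FLA2 at 30.8 FPKM in bri1-116 and 252 FPKM in Col-0, and FLA13 at 4.45 FPKM in bri1-116 and 119 FPKM in Col-0. Only SOS5 and FLA11 lay within 2-fold. Among all arabinogalactan proteins, a list drawn up after the values were seen, 20 of 34 were lower and 2 were higher. Primary-wall cellulose synthase genes were lower by less than 2-fold, as in CESA1 (97.3 FPKM in bri1-116, 144 FPKM in Col-0), apart from CESA2 and CESA5. Of 11 ranked secondary-wall and xylem genes 5 passed 2-fold, all lower, and the other 6 had ratios from 0.509 to 0.602. Tubulins were lower for TUB8 (34.6 FPKM in bri1-116, 114 FPKM in Col-0), TUB1 and TUA1. The aquaporins, channels that let water into expanding cells, were lower in 6 of 14 and higher in 1: PIP3 was at 478 FPKM in bri1-116 and 1329 FPKM in Col-0, and their summed FPKM was 6844 in bri1-116 against 12265 in Col-0.

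Genes of barrier layers were lower in part. The Casparian strip, the lignin band that seals the root endodermis, is built by CASP proteins, the peroxidase PER64 and the dirigent-domain protein ESB1 under MYB36. CASP1 was at 36.0 FPKM in bri1-116 and 137 FPKM in Col-0, CASP5 at 18.6 FPKM in bri1-116 and 123 FPKM in Col-0, and ESB1 at 37.3 FPKM in bri1-116 and 140 FPKM in Col-0. All 5 CASP genes, PER64, ESB1 and MYB36 were above 2-fold lower, at ratios of 0.152 to 0.447. SCR (24.6 FPKM in bri1-116, 22.8 FPKM in Col-0) and SHR (20.2 FPKM in bri1-116, 20.4 FPKM in Col-0), which set up the endodermal layer, differed little, and so did CYP86A1 of suberin synthesis (28.2 FPKM in bri1-116, 34.1 FPKM in Col-0). Dirigent proteins, which steer the coupling of lignin and lignan precursors, were lower in 7 of 12: AT4G11190 was at 1.54 FPKM in bri1-116 and 193 FPKM in Col-0, the third lowest ratio of all ranked genes. In the cuticle, 10 of 21 ranked wax genes were lower and none was higher. KCS1 (27.6 FPKM in bri1-116, 177 FPKM in Col-0) and KCS6 (122 FPKM in bri1-116, 393 FPKM in Col-0) elongate very-long-chain fatty acids, CER1 (5.56 FPKM in bri1-116, 32.7 FPKM in Col-0) turns them into alkanes, and the wax ester synthase WSD1 was listed at 0 in bri1-116 against 11.1 FPKM in Col-0.

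Other genes of the 25 lowest ratios included RGF6, a root growth peptide (3.47 FPKM in bri1-116, 150 FPKM in Col-0), ENODL1 (0.437 FPKM in bri1-116, 17.5 FPKM in Col-0) and the cysteine protease AT4G11320, whose level of 22.2 FPKM in bri1-116 stood against 592 FPKM in Col-0. QQS was at 0.998 FPKM in bri1-116 and 30.1 FPKM in Col-0, but at 179 FPKM in DAYi with EtOH, so that its controls were unlike. ABA and cold response genes were lower in 8 of 19, such as COR47 (88.6 FPKM in bri1-116, 451 FPKM in Col-0) and RD22 (33.4 FPKM in bri1-116, 186 FPKM in Col-0), but KIN2 (168 FPKM in bri1-116, 22.4 FPKM in Col-0), KIN1 and LEA4-5 were higher.

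Photosynthesis genes were higher in the dark mutant. Of 19 ranked light-harvesting antenna genes 14 were above 2-fold higher and none was lower, with a list median of 1.76. CAB1, the most abundant of them, was at 14221 FPKM in bri1-116, 2534 FPKM in Col-0 and 2287 FPKM in DAYi with EtOH, and their summed FPKM was 24668 in bri1-116 against 7651 in Col-0. LHCB3 was at 770 FPKM in bri1-116 and 192 FPKM in Col-0, and LHCA4 at 1139 FPKM in bri1-116 and 335 FPKM in Col-0. The exceptions below 1 were LHB1B2 (749 FPKM in bri1-116, 1311 FPKM in Col-0) and LHB1B1 (112 FPKM in bri1-116, 124 FPKM in Col-0). These were at 328 and 9.67 FPKM in DAYi with EtOH, so that both were higher in bri1-116 and in Col-0 than in that control, and they belong with CAB1, CAB2 and CAB3 to near-identical copies whose reads cannot be split with certainty.

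Photosystem subunits were higher in 22 of 24 ranked members, at ratios from 1.72 to 6.01 over the whole list, with a list median of 1.67 on the log2 scale of FPKM + 1. PSBO2 of the oxygen-evolving complex was at 217 FPKM in bri1-116 and 36.1 FPKM in Col-0, PSAH2 of photosystem I at 690 FPKM in bri1-116 and 128 FPKM in Col-0, and PSBTN at 709 FPKM in bri1-116 and 149 FPKM in Col-0. Below 2-fold were PSBP-1 and PSAE-2. Electron transport genes were higher in 9 of 11, as in the plastocyanin gene DRT112 (1126 FPKM in bri1-116, 328 FPKM in Col-0), and 13 of 19 Calvin cycle genes were. RBCS1B, a Rubisco small subunit, had the highest ratio there, at 180 FPKM in bri1-116 and 15.2 FPKM in Col-0, whereas the more abundant RBCS1A was at 5785 FPKM in bri1-116 and 2093 FPKM in Col-0. On a list chosen after the values were seen, 12 of 13 genes of the plastid NDH complex and its assembly were higher, among them CRR7 (31.5 FPKM in bri1-116, 3.94 FPKM in Col-0).

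Chlorophyll synthesis genes were higher in 19 of 27 and lower in none. The light-dependent oxidoreductases PORB (1649 FPKM in bri1-116, 528 FPKM in Col-0) and POR C (59.4 FPKM in bri1-116, 11.8 FPKM in Col-0) were higher like PORA, as were CHLP, GUN4 (126 FPKM in bri1-116, 32.1 FPKM in Col-0) and HEMA1, the entry step (170 FPKM in bri1-116, 69.6 FPKM in Col-0). TED4, which turns heme towards phytochrome chromophore, was at 113 FPKM in bri1-116 and 154 FPKM in Col-0. Of the chlorophyll breakdown list none of 7 passed 2-fold. Carotenoid genes were higher in 6 of 16, including phytoene synthase PSY (122 FPKM in bri1-116, 46.4 FPKM in Col-0), and all 5 ranked photoprotection genes were higher, such as ELIP2 (31.2 FPKM in bri1-116, 6.45 FPKM in Col-0).

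Of 10 ranked plastid regulators 2 were above 2-fold higher than in Col-0, the polymerase gene SCA3 (28.5 FPKM in bri1-116, 10.5 FPKM in Col-0) and the sigma factor gene SIGA (69.1 FPKM in bri1-116, 34.5 FPKM in Col-0), and none was lower. Against DAYi with EtOH 6 of the 10 were higher. GLK2 was at 41.9 FPKM in bri1-116 and 26.2 FPKM in Col-0 and GNC at 32.5 FPKM in bri1-116 and 16.3 FPKM in Col-0, and both, like GPRI1 (GLK1), lay within 2-fold of Col-0. Against DAYi with EtOH (19.4 FPKM for GLK2 and 15.2 FPKM for GNC) both were above 2-fold higher. HY5, the factor that drives greening in light, was at 79.6 FPKM in bri1-116 and 71.7 FPKM in Col-0. Its homolog HYH was higher, at 74.0 FPKM in bri1-116 and 17.7 FPKM in Col-0, and the B-box gene STH at 15.1 FPKM in bri1-116 and 3.91 FPKM in Col-0. COP1, PIF3, PHYB and CRY1 were within 2-fold, and of 14 ranked PIF and shade growth genes only HAT2 passed it, at 15.8 FPKM in bri1-116 and 40 FPKM in Col-0. The circadian clock list had 1 of 20 above 2-fold, CAB2, which is an antenna gene.

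Ribosomal protein genes spanned a narrow band of ratios. Plastid ribosomal proteins were above 2-fold higher in 28 of 35 (ratios 1.33 to 3.75, list median log2 of 1.37), as in EMB3105 (402 FPKM in bri1-116, 113 FPKM in Col-0). Cytosolic ribosomal proteins were higher in 89 of 203 and lower in none (ratios 0.623 to 2.95, list median log2 of 0.96), and their summed FPKM was 74251 in bri1-116 against 38641 in Col-0. These genes are short, and ratios ran with exonic length across all ranked genes: the shortest eighth of genes (up to 937 bp) had a median log2 of 0.32, and the longest (2840 bp and over) one of -0.37. DAYi with EtOH over Col-0 ran the same way, with 0.22 in the shortest eighth and -0.15 in the longest. After subtracting the median of genes of like length, the cytosolic ribosomal list had a median of 0.69, and against DAYi with EtOH 27 instead of 89 members were above 2-fold higher. By the same measures the plastid ribosomal list had a median of 1.18 and 28 members above 2-fold, the photosystem list 1.45 and 23, and the antenna list 1.58 and 19. The part of gene length in the ribosomal values was not tested.

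**Figure D3:**
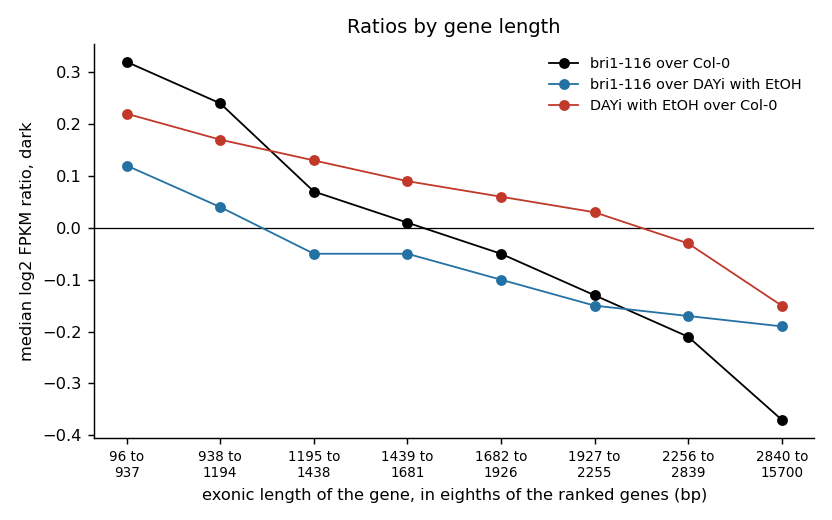
Median log2 FPKM ratio (vertical) of 12244 ranked genes in 8 groups of rising exonic length (horizontal, bp) for 3 pairs of dark libraries. bri1-116 over Col-0 runs between 0.32 and -0.37, bri1-116 over DAYi with EtOH between 0.12 and -0.19, and DAYi with EtOH over Col-0 between 0.22 and -0.15.

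**Figure D4:**
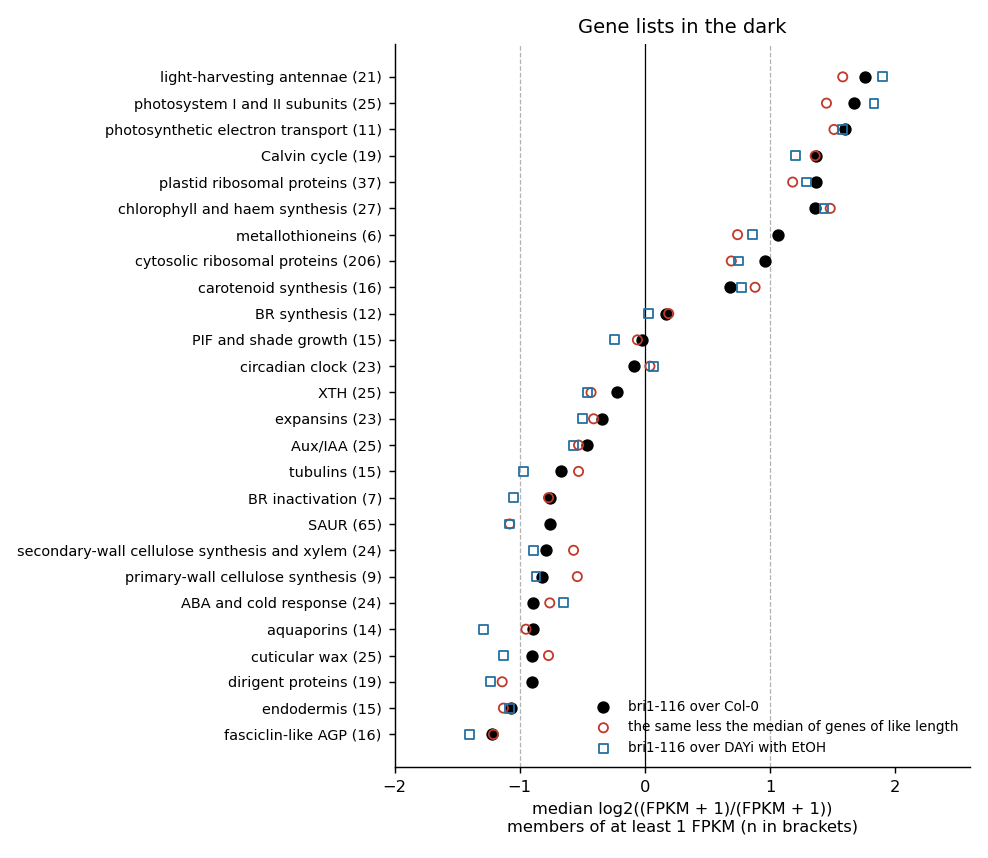
Median log2((FPKM + 1)/(FPKM + 1)) of 26 gene lists in the dark for bri1-116 over Col-0 (black), the same less the median of genes of like exonic length (red circles), and bri1-116 over DAYi with EtOH (blue squares). The photosynthesis and ribosome lists stay above 0 and the wall, cuticle and endodermis lists below 0 on all 3.

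The highest ratios of all belonged to secreted small proteins. On chromosome 4, AT4G22485, AT4G22505, AT4G22510, AT4G22513 and AT4G22517, most annotated as lipid-transfer or protease-inhibitor proteins, were at 12.6 to 136 FPKM in bri1-116 and 0.556 to 6.47 FPKM in Col-0, ratios of 17.9 to 34.2. The last 3 share a transcribed region in the table, so that their reads cannot be told apart. Their neighbours AT4G22490 (148 FPKM in bri1-116, 25.5 FPKM in Col-0) and AT4G22520 (54.9 FPKM in bri1-116, 10.5 FPKM in Col-0) were higher as well, AT4G22530 was about level, and AT4G22460 ran the other way (2.53 FPKM in bri1-116, 19.6 FPKM in Col-0). The defensins PDF1.5 (41.8 FPKM in bri1-116, 1.69 FPKM in Col-0) and AT3G05727 (211 FPKM in bri1-116, 12.6 FPKM in Col-0) followed. TT4, the chalcone synthase at the start of flavonoid synthesis, was at 18.6 FPKM in bri1-116 and 1.60 FPKM in Col-0, and the plastid calcium sensor gene CaS at 211 FPKM in bri1-116 and 27.2 FPKM in Col-0.

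Of 6 metallothionein genes, whose products bind metals, 3 were above 2-fold higher and none was lower. They were MT2A (1690 FPKM in bri1-116, 508 FPKM in Col-0), MT2B and MT1B, while MT1A, the most abundant, was at 21172 FPKM in bri1-116 and 22326 FPKM in Col-0. The iron superoxide dismutase gene FSD1 was at 1510 FPKM in bri1-116 and 369 FPKM in Col-0 but 861 FPKM in DAYi with EtOH, and the plastid FSD2 at 52.3 FPKM in bri1-116, 10.7 FPKM in Col-0 and 11.7 FPKM in DAYi with EtOH. Of 4 ranked GASA genes, for gibberellin-regulated peptides, 2 were higher and 1 was lower. GASA4 was at 4370 FPKM in bri1-116 and 1139 FPKM in Col-0, while GASA6 was at 62.8 FPKM in bri1-116 and 164 FPKM in Col-0.

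In 15 genes one library reached 10 FPKM and the other was listed at 0, 11 of them at 0 in bri1-116. Of the 15, 4 were upstream open reading frame entries and 9 hypothetical proteins, among them all 4 genes at 0 in Col-0. The others were IAA6 and WSD1, which both controls expressed. The upstream reading frame entry CPuORF3 was also at 0 in bri1-116 only, with 153 FPKM in Col-0 and 583 FPKM in DAYi with EtOH. Another such entry, CPuORF62, was listed at 0 in bri1-116 and DAYi with EtOH and at 1741 FPKM in Col-0, so zeros of these entries are not read as absence.

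The title of the light bri1-116 library starts with new, as no other title in the series does, and the labels do not explain it. The same mutant in the light gave another pattern, from libraries that share none of the dark ones and also differ in age. There, 407 of 12006 genes were above 2-fold higher (3.39%) and 747 lower (6.22%). Of 1108 genes higher in the dark and measured in the light, 148 (13.4%) were above 2-fold lower in the light and 40 (3.6%) higher. Of 555 genes lower in the dark, 86 (15.5%) were lower in the light as well and 24 (4.3%) higher, and Spearman's rho across 10730 genes, which are not independent, was -0.087. Photosystem subunits were lower in light-grown bri1-116 in 20 of 24 members (list median -1.35) and antennae in 18 of 21 (-1.61). Of 31 SAUR genes measured in the light, 12 were above 2-fold lower and 2 were higher. CASP1 had a dark ratio of 0.263 and a light ratio of 0.923. Whether the 2 conditions differ was not tested.

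**Figure D5:**
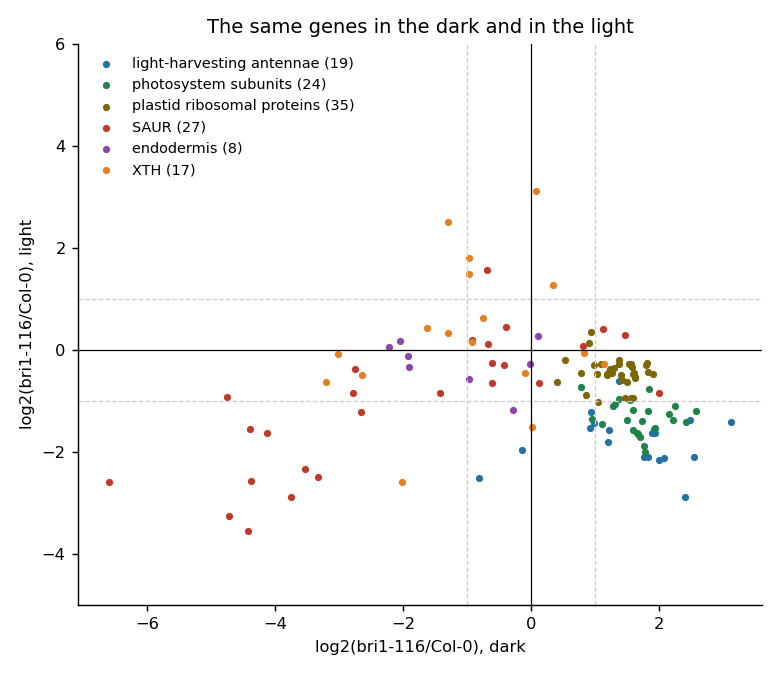
log2 ratio of bri1-116 to Col-0 in the light (vertical) against the dark (horizontal) for members of 6 lists with at least 10 FPKM in both conditions; dashed lines mark 2-fold. Antenna and photosystem genes gather at the lower right (higher in the dark, lower in the light) and the low SAUR genes at the lower left.

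Most genes higher in dark bri1-116 were also higher in light-grown than in dark-grown seedlings without the mutation. Set against an independent dark control, and across tables normalized separately, light-grown Col-0 over dark DAYi with EtOH had a median log2 ratio of 1.79 over 1168 genes higher in dark bri1-116 and of -1.27 over 787 genes lower there, against -0.16 over 12270 ranked genes. Of the higher genes 76.3% were above 2-fold higher in the light-grown Col-0, against 17.1% of all. Of the lower genes 59.8% were above 2-fold lower, against 21.2% of all.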

How the data were processed

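mRNA of whole seedlings was sequenced on the NextSeq500 platform from strand-specific libraries. Per the submitters' processing notes, Cuffdiff 2.2.0 gave the FPKM after TopHat2 2.0.13 had mapped the reads, called with CASAVA 1.8.2, to the TAIR10 genome. The values are FPKM as the authors deposited them, 1 column per library, and 1 library per group. The authors' own fold changes, p-values and q-values in these tables, and their sheets of selected genes, were not used.

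Ratios were computed from FPKM with no pseudocount. A gene was ranked when it was above 0 in both libraries and at least 10 FPKM in either, and counted when its ratio was above 2, the limit the methods use. Entries that join loci or lack a tag (192) were left out. List counts use ranked members, and list medians use log2((FPKM + 1)/(FPKM + 1)) over members of at least 1 FPKM, which understates the differences of low genes. No test across genes or genotypes is possible with 1 library per group. Intervals of ratios are exact binomial (95%) on fragments estimated from low FPKM of 523 intronless genes, where 55.2% and 74.5% of values in bri1-116 and Col-0 were whole within 0.15 against 30% by chance. The ranking counts and the depth estimate were tested on simulated data, the latter with whole gene lengths only. With 200 bases taken off each length, 54.8% and 73.3% of values were whole, at 108.2 fragments in bri1-116 and 63.8 in Col-0. The simulation cannot tell which length applies, because it used whole lengths only. DAYi and light tables were normalized separately, so values across tables are set side by side only. Exonic lengths, gene starts and promoters came from RefSeq for TAIR10.1; 12244 ranked genes matched.

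The members and the 73 gene lists were chosen with earlier results of these data known, 6 lists were added after the values were seen, and symbol matches were corrected with the files open. Genes named are BRI1, DAY, the 25 highest and 25 lowest ratios, genes at 0 in 1 library, and list members of at least 10 FPKM; neighbours in tandem groups and genes beside the 2-fold limit were added after their values were seen. Analyses used Python 3.11.15, pandas 2.3.3, NumPy 2.4.6, SciPy 1.17.1 and matplotlib 3.10.9.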

Additional observations from a re-analysis of the deposited data

Results flagged for a closer look

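Of the 25 genes of highest dark ratio, 9 had a bri1-116 to Col-0 ratio below 0.5 in the light, with 1 library per group. Their dark ratios above 2 follow from how the 25 were picked. In the light 6.22% of 12006 genes were above 2-fold lower. Of the 1108 genes higher in the dark and measured in the light, 13.4% were. The difference between dark and light was not tested, age differs with light, and only the light bri1-116 library has new in its title. In the light the ratios were 0.36 for PDF1.5, 0.375 for AT4G22505, 0.379 for AT4G22485, 0.371 for AT3G05727, 0.314 for AT5G38930, 0.374 for CAB2, 0.466 for AT5G48490, 0.475 for AT4G00165 and 0.324 for AT2G34620. In the dark the same genes had ratios from 7.16 (AT2G34620) to 24.7 (PDF1.5).

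The list medians ran opposite ways as well, on the log2 scale of FPKM + 1. They were 1.76 in the dark and -1.61 in the light for light-harvesting antennae, 1.67 in the dark and -1.35 in the light for photosystem subunits, and 1.60 in the dark and -1.01 in the light for photosynthetic electron transport. These differences were not tested either.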

How the results depend on the processing

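Counts of genes above 2-fold in bri1-116 depended on the limits: 1849 higher and 1436 lower with at least 1 FPKM, 2460 higher and 1989 lower with no minimum, and 134 higher and 184 lower above 4-fold. With the libraries exchanged, as the genotype fields have them, the directions turn: 791 higher and 1175 lower. The uninduced DAYi library lay near the library titled Col-0 (42 genes higher and 28 lower in DAYi) and far from the one titled bri1-116, which goes with the titles. The counts were 1556 higher and 597 lower without AT2G01021, 1295 and 720 with the median ratio set to 1, 1094 and 1077 with DAYi with EtOH as the control, and 1058 and 775 with the median of genes of like length divided out, an alternative chosen after seeing the data. Counting genes at 0 or keeping joined entries moved them less. Of 52 ratios, mostly of genes picked as the highest and lowest, none fell from beyond 2-fold to inside it against DAYi with EtOH. In that comparison 8 moved by over 2-fold. The rescalings shifted log2 ratios by only 0.13 (without AT2G01021) and 0.05 (median ratio set to 1). They could not bring such extreme ratios inside 2-fold, so they are no check of these genes. Genes near the limit did change: the count of lower enzymes that inactivate BRs dropped under both rescalings. Of 79 list medians, 7 changed sign without AT2G01021 and 9 after the length subtraction, none of them beyond 0.5. No paired analysis was possible because each group has 1 library. Fragments in bri1-116 limit the precision of low ratios, and fragments in Col-0, the shallower library, that of high ratios.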

Other observations

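Some further groups in the dark stood apart by count, beside 9.56% of ranked genes higher and 6.44% lower. Fatty acid desaturases, a list chosen after the values were seen, had 7 of 16 higher in bri1-116 and 1 lower: the plastid desaturase FAD7 was at 146 FPKM in bri1-116 and 48.6 FPKM in Col-0, and FAD8 at 20.7 FPKM in bri1-116 and 5.26 FPKM in Col-0. Defensins, also chosen after the values were seen, had 9 of 14 higher and 2 lower, with AT2G43535 at 74.6 FPKM in bri1-116 and 365 FPKM in Col-0 among the lower ones. Class III peroxidases stood apart on the lower side only: of 36 ranked members 6 were lower, 3 were higher and 27 were within 2-fold. Their list median was 0.08. The most abundant, AT2G37130, was at 241 FPKM in bri1-116, 1338 FPKM in Col-0 and 2155 FPKM in DAYi with EtOH.

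Nitrate and nitrogen genes were mixed, with 2 of 17 ranked members higher and 3 lower. So were sucrose transport and starch genes, with 3 of 15 higher and 3 lower. Of 13 ranked sugar starvation genes 4 were lower, none was higher, and all 13 had ratios below 1. NRT1.1, a nitrate transporter, was at 29.6 FPKM in bri1-116 and 117 FPKM in Col-0. The asparagine synthetase genes ran opposite ways: ASN1, induced by darkness and low sugar, was at 114 FPKM in bri1-116 and 282 FPKM in Col-0, and ASN2 at 38.3 FPKM in bri1-116 and 9.28 FPKM in Col-0. The sucrose exporter SWEET11 was at 117 FPKM in bri1-116 and 322 FPKM in Col-0, and the starch enzymes DPE1, ADG1 and SEX1 had ratios from 2.11 to 3.94. In the leaf and meristem list 13 of 17 ranked genes were within 2-fold. The TCP genes TCP4 (28.1 FPKM in bri1-116, 8.71 FPKM in Col-0) and TCP2 and the growth regulator AN3 were higher. KNAT1 of the meristem was lower, at 14.1 FPKM in bri1-116 and 38.8 FPKM in Col-0.

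Of 6 ranked stomatal lineage genes 1 was higher, 2 were lower and 3 (ICE1, SCRM2 and MYB60) were within 2-fold. The higher one, the peptide gene STOMAGEN, was at 78.6 FPKM in bri1-116, 29.7 FPKM in Col-0 and 43.2 FPKM in DAYi with EtOH. MYB88 (5.17 FPKM in bri1-116, 37.4 FPKM in Col-0) and its homolog FLP (7.79 FPKM in bri1-116, 20.7 FPKM in Col-0), which end the stomatal lineage's divisions, were lower.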
